A study of Mus musculus with 6 samples.

Results

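Transcripts of the replication-dependent histone genes were compared across 3 groups of primary mouse cortical neurons. These genes encode the linker histone H1 and the core histones H2A, H2B, H3 and H4 that package newly made DNA. The 67 members were the genes of the table whose symbol begins with Hist1h, Hist2h, Hist3h or Hist4h, out of 55538 genes in all, of which 52028 carried a symbol. They comprised 6 H1, 18 H2A, 18 H2B, 12 H3 and 13 H4 genes. Pseudogenes of these names, 3 in number, were left out.

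Neurons came from the cortex of C57BL/6 embryos at day 14.5, with no other genotype, allele or agent named in the labels. All groups rested for 2 h at 37 °C in a medium with 10% serum. The control then stayed at 37 °C for 60 min, and the heated groups spent 15 min or 60 min at 42 °C. Each group had 2 libraries, here called s1 and s2 after the column names, and no label says whether these came from separate embryos or cultures, so the p-values measure only the spread between these libraries, which may be technical. No control of 15 min is described, so time in culture and time at 42 °C cannot be told apart in the 15 min comparisons. Total RNA was depleted of ribosomal RNA and was not selected for poly(A) tails.

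As background, replication-dependent histone mRNAs are the main animal mRNAs that lack a poly(A) tail. They end shortly after a conserved stem-loop, to which the stem-loop binding protein Slbp binds, and the U7 small nuclear RNP cuts the precursor just downstream. The mRNAs build up in S phase and are degraded when DNA synthesis stops. Replacement histones, such as H3f3a, H3f3b and H2afz, come from polyadenylated mRNAs that are made throughout the cell cycle and in neurons that no longer divide.

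The stem-loops of 7 members are shown because they carry the difference between the classes that the results below return to. They were read from GENCODE transcripts of the GRCm38 build, 5′ to 3′, written as DNA, with the 16 bases of the stem-loop in capitals and up to 5 flanking bases on each side in lower case.
Hist1h1c: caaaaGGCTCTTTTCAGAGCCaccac
Hist1h2ac: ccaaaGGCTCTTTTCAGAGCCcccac
Hist1h2bj: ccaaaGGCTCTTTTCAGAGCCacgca
Hist1h3b: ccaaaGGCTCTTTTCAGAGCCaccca
Hist1h4j: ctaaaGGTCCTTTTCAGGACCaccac
Hist1h4m: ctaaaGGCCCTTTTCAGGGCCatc
Hist1h4n: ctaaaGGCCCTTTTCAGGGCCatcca

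A stem-loop was found in the annotated transcript of 46 of the 67 members, 21 to 58 bases after the stop codon with a median of 31. The form in Hist1h1c, Hist1h2ac, Hist1h2bj and Hist1h3b was shared letter for letter by 26 members. All 34 matched members of H1, H2A, H2B and H3 had a stem that opens with GGCTC. All 12 matched H4 genes had another stem, which opened with GGCCC in 10 and with GGTCC in Hist1h4j and Hist1h4b. Of the 21 members without a match, 13 had no annotated base after the stop codon and 16 had fewer than 40, so the window there was too short or nearly so. The rest were Hist1h1a, with 48 bases, and Hist1h2bc, Hist1h2bq, Hist1h2br and Hist2h2be, with 742 to 2192. For Hist1h1a the window may still be too short, since stem-loops of other members began up to 58 bases after the stop codon. For the genes with 742 to 2192 bases the missing match is not explained by a short window in that way. No match says only that these letters are not in the annotated transcript.

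The promoters of 3 members are shown because Hist1h1c and Hist1h2ac were among the members that differed most after heat and Hist1h4n was the member that differed the other way. They run from 250 bases before to 50 after the RefSeq start in build GRCm38.p6, 5′ to 3′ on the gene's strand. Capitals mark letters of 4 motifs, each searched on both strands and anywhere in the window. Distance from the start was not checked, so a match need not lie where a working motif would. The TATA box, which positions the start of transcription, was searched as TATAAA. The CCAAT box was searched by the letters of its name. The octamer of histone H2B promoters was searched as ATTTGCAT. The AC box known from H1 promoters was searched as AAACACA. Matches of different motifs overlapped in 0 of the 62 members searched.
Hist1h1c, chr13:23738557-23738856, strand plus: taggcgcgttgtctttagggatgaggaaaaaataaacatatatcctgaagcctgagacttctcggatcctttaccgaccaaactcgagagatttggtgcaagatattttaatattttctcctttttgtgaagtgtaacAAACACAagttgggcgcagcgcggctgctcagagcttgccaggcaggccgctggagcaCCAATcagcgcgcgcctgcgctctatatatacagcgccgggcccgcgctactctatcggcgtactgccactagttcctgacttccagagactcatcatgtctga
Hist1h2ac, chr13:23683910-23684209, strand minus: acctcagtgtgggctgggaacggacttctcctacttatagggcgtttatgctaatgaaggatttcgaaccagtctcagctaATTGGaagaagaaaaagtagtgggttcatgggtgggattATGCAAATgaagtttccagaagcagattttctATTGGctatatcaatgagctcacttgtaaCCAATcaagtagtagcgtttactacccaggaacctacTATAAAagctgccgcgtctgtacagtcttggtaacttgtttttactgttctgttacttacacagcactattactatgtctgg
Hist1h4n, chr13:21832148-21832447, strand minus: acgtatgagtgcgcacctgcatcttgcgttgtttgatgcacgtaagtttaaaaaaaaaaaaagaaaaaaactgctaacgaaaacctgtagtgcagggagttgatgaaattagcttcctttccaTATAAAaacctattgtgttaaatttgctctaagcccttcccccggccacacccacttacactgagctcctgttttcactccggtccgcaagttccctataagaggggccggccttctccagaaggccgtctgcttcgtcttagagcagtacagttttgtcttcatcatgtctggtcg

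Among 62 members with a RefSeq promoter, CCAAT was found in all 50 genes of the H1, H2A, H2B and H3 classes and in 3 of 12 H4 genes, against 41.058% of all 27025 promoters. The octamer, which Oct1 binds in H2B promoters, was found in 7 of 18 H2A and 7 of 16 H2B promoters and in no promoter of the other classes, against 1.969% of all. Many H2A and H2B genes lie head to head with 176 to 306 bases between annotated starts, so their windows overlap. The same match can then count for both genes, and these promoters are not independent. The AC box was found in 5 of 6 H1 promoters, in 2 H2A, in 2 H2B and in no H3 or H4 promoter, against 8.222% of all. TATAAA was found in 8 of 12 H4, 4 of 6 H1, 11 of 18 H2A, 8 of 16 H2B and 4 of 10 H3 promoters. It was found in 15.667% of all. H4 genes thus differed from the other classes both in the stem of the 3′ stem-loop and in how often a CCAAT box was found. The matches are a description of letters, not of bound factors.

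Each value is a normalised signal per gene as the authors made it, which they name TPM and which is therefore taken as a level per transcript length. How deeply each library was sequenced is unknown. The libraries totalled 892768 to 1056383. Control s1 stood apart, with 29309 genes at a signal of at least 1 against 19035 to 21796 in the other libraries. Summed over 5 neuronal genes (Tubb3, Map2, Dcx, Stmn2, Gap43), the signal ran from 1315 to 1909, and over 6 progenitor genes (Sox2, Pax6, Nes, Vim, Eomes, Fabp7) from 2287 to 3271. The sums over 4 microglial, 4 endothelial and 5 fibroblast and meningeal genes stayed between 6.93 and 16.2. The sum over 6 erythroid genes ran from 256 to 506. Transcripts that mark neurons and transcripts that mark progenitors, which divide, were thus both present in all 6 libraries.

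In the control libraries the histone genes made up a large signal. All 67 members summed to 33590.9 in control s1 and 39308.5 in control s2, which was 3.76% and 3.74% of the library totals. Single members ran over all libraries from a mean of 0 to a mean of 3261, with a median of 240, and 8 members had a mean of at least 1000. Of the 67, 63 had a mean signal of at least 1 and were tested. The 4 under that filter were Hist1h1t and Hist1h2aa, which are testis genes, Hist1h2bq, and Hist2h3c1, which was listed at 0 in every library.

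Near-identical copies limit what a single gene's value means. Of the 67 members, 21 had fewer than 20% of their 31-base words in no other annotated gene, and 5 had none. Reads may thus be divided between genes in a way that is not known. Hist2h2bb and Hist2h3c1 had no unique word but shared only 8.0% and 35.4% of their words with other members. Most of their words thus lay in genes outside the set. The 6 H1 genes were 65.3% to 100% unique. Hist1h2ai was 8.0% unique, Hist1h2ap 6.6%, Hist2h3b 0%, Hist1h4k 13.8%, Hist1h4m 8.3% and Hist1h4n 12.5%. Values for those 6 genes are uncertain for that reason. Class sums are less exposed to it only where the sharing is within a class.

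After 60 min at 42 °C, the summed signal of the H1, H2B, H3 and H2A classes was below both control libraries in both heated libraries. The H1 class was furthest below, at 36.7% of the control mean, followed by H2B at 48.9%, H3 at 52.4% and H2A at 64.5%. The H4 class was at 80.9%, and its groups overlapped. Most of the H4 sum came from Hist1h4k and Hist1h4m, with means of 3261 and 2436, which are only 13.8% and 8.3% unique. The median log2 change over single H4 genes was −0.83. In bulk RNA, fewer cells of a type and less RNA per cell cannot be told apart. With 2 libraries against 2, the smallest two-sided p that an exact permutation test allows is 0.333, so the class sums are given with no test.

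The H1 genes, whose proteins bind the DNA between nucleosomes, summed to 2463.9 and 3026.5 in control, 1752.1 and 1455.9 at 15 min, and 1149.4 and 868.1 at 60 min. No library of one group overlapped with another group, and the order was control, 15 min, 60 min. The H4 genes summed to 7629.2 and 11230.8 in control, 6997.3 and 6472.7 at 15 min, and 9201.3 and 6051.5 at 60 min. The control and 60 min groups interleaved. The H2B sum was 5137.1 and 6873.4 in control, 4230 and 3338.6 at 15 min and 3572.5 and 2305.4 at 60 min. Both heated groups lay below control and overlapped with each other. The H3 sum was 5332.5 and 7651.8 in control, 4262.2 and 3327.4 at 15 min and 4054 and 2755.9 at 60 min. Its heated groups overlapped in the same way. The H2A sum was 13028.2 and 10526 in control, 12125.1 and 6700.7 at 15 min and 9929 and 5254.1 at 60 min. Within each of the heated groups, s1 was higher than s2 in every class.

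The ratio of the H1 sum to the H4 sum does not depend on how a library is scaled. It was 0.323 and 0.269 in control, 0.25 and 0.225 at 15 min, and 0.125 and 0.143 at 60 min. The 3 groups did not overlap in this ratio, and 60 min was the lowest. Its H4 part rests mostly on Hist1h4k and Hist1h4m, which are only 13.8% and 8.3% unique, and the ratio without them was not computed. The separation of control from 15 min in this ratio, and the interleaving of the H4 sums, may not hold without those genes. H1 transcripts made up 7.34% and 7.7% of the summed histone signal in control and 4.12% and 5.04% at 60 min, while H4 transcripts made up 22.7% and 28.6% in control and 33% and 35.1% at 60 min.

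**Figure D1:**
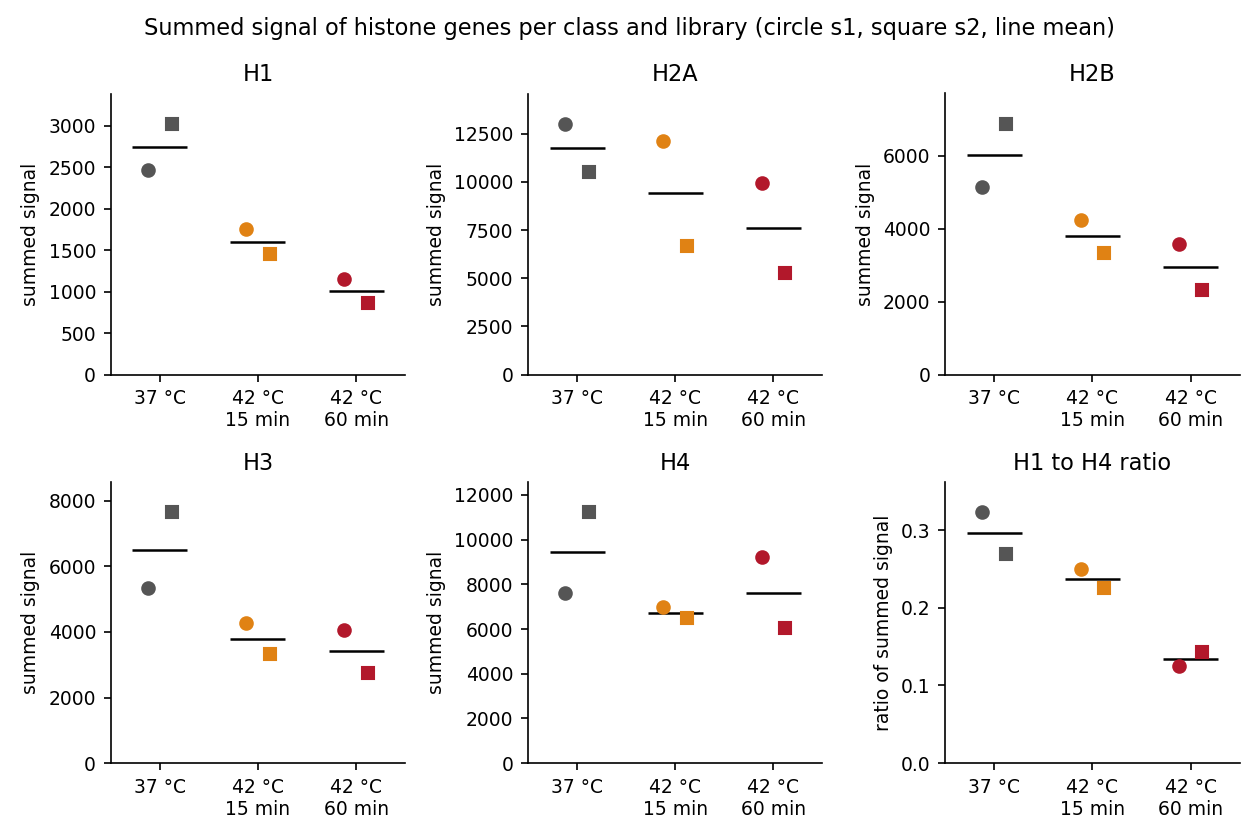
Summed signal (y axis, authors' normalised signal) of the histone genes of each class in the 2 libraries per group (x axis), with the ratio of the H1 sum to the H4 sum in the last panel. Circles are s1, squares s2 and lines group means. The H1 sum steps down from 2463.9 and 3026.5 in control to 1149.4 and 868.1 at 60 min, whereas the H4 control and 60 min groups interleave. The H4 sum rests mostly on Hist1h4k and Hist1h4m.

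Gene by gene, 59 of the 63 tested members were lower after 60 min than in control and 4 were higher. No member passed limma's test at an adjusted p of 0.05, which 0.041% of all genes tested passed. Both 60 min libraries lay below both control libraries for 51 members (81% of those tested), against 19.8% of all genes tested. An unadjusted p under 0.05 with a lower value was found for 44 members (69.8%), against 5.41% of all genes tested, and with a higher value for 1. The median change was −1.04 on the log2(signal + 1) scale, against −0.12 over all genes tested. Genes with a mean of at least 100, which is where 45 members lie, had a median of 0.23, and 21.5% of those 1712 genes were lower.

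The class medians of the log2 change were −1.67 for H1, −1.16 for H2B, −1.02 for H2A, −0.96 for H3 and −0.83 for H4. All 5 tested H1 genes, all 17 H2B and all 11 H3 genes were lower, as were 16 of 17 H2A and 10 of 13 H4 genes. Without overlap between the groups, lower genes numbered 5 of H1, 16 of H2B, 10 of H3, 13 of H2A and 7 of H4. The share over all genes tested was 19.8%. Leaving out the 60 min library s2 moved the median over members to −0.77, and leaving out s1 moved it to −1.30, so the size of the difference rests on which heated library is used. When libraries were rescaled by median-of-ratios factors from all genes above 0, 32 members were lower without overlap, against 9.25% of all genes tested, and the median was −0.84 against a median of 0.05 over all genes.

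**Figure D2:**
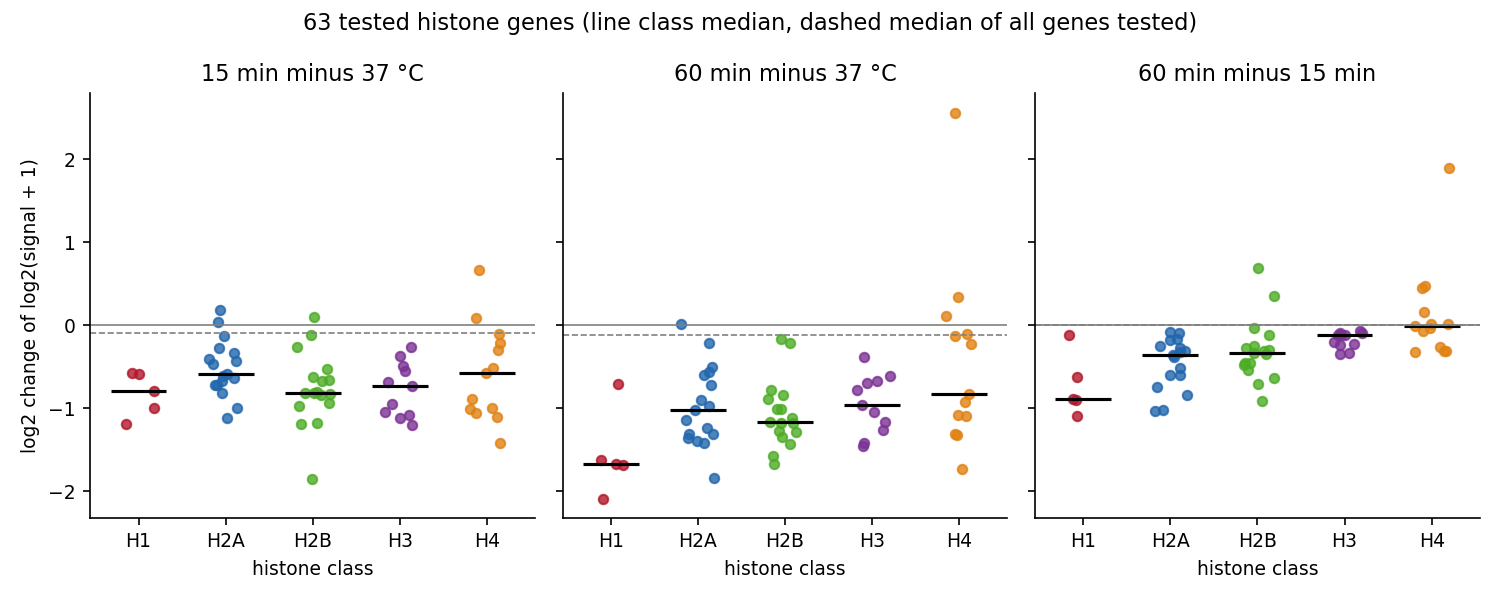
Log2 change of log2(signal + 1) (y axis) for the 63 tested histone genes by class (x axis) in 3 comparisons. Points are genes, solid lines class medians and dashed lines the median of all genes tested. At 60 min the H1 genes lie around a median of −1.67 and 1 H4 gene, Hist1h4n, stands at 2.56. The first and second panels share their control libraries.

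Among the linker histones, Hist1h1c (ENSMUSG00000036181), a somatic H1 that is also made outside S phase in many cells, had the smallest p of any member. Its signal was 486 and 690 in control, 247 and 259 at 15 min, and 143 and 129 at 60 min. The 3 groups did not overlap, and the 60 min mean was 23.1% of control. The log2 change was −2.09 ± 0.22 (SE, adjusted p = 0.0909), ranked 14 of the 21954 genes by p. Hist1h1b (ENSMUSG00000058773), an H1 gene tied to dividing cells, had 687 and 932 in control, 509 and 415 at 15 min and 280 and 220 at 60 min. It showed the same order of groups without overlap, with a log2 change of −1.68 ± 0.25 (adjusted p = 0.174). Hist1h1a (ENSMUSG00000049539), another somatic H1 gene, had 580 and 716 in control, 470 and 390 at 15 min and 445 and 347 at 60 min. Its heated groups overlapped with each other and lay below control, with a log2 change at 60 min of −0.71 ± 0.23 (adjusted p = 0.509). The other 2 tested H1 genes, Hist1h1d and Hist1h1e, which the naming rule did not pick, had log2 changes of −1.63 and −1.67. At 60 min Hist1h1a was at 61.1% of its control mean and Hist1h1b at 30.9%, and the difference between H1 genes was not tested.

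Hist1h1c was past an adjusted p of 0.05 in 2 alternatives. The adjusted p was 0.0494 without control s2, a setting in which 155 genes passed, and 0.0341 with median-of-ratios scaling over genes with a mean of at least 20, which was chosen after seeing the data. Over its 16 alternatives the adjusted p ran from 0.0341 to 0.455 and the log2 change from −2.34 to −1.84.

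Hist1h2ac (ENSMUSG00000069270), an H2A gene, and Hist1h2bc (ENSMUSG00000018102), an H2B gene, lie head to head with 251 bases between their annotated starts. Hist1h2ac had 54.0 and 42.2 in control, 28.9 and 19.0 at 15 min and 15.1 and 10.5 at 60 min. Hist1h2bc had 40.3 and 53.5 in control, 22.9 and 24.5 at 15 min and 16.0 and 13.9 at 60 min. Both genes showed the order control, 15 min, 60 min without overlap. Their log2 changes at 60 min were −1.84 ± 0.29 (adjusted p = 0.189) and −1.58 ± 0.21 (adjusted p = 0.151).

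Such head-to-head pairs of an H2A and an H2B gene on opposite strands numbered 12, taking starts within 500 bases of each other, and 176 to 306 bases lay between the annotated starts. In 10 pairs both genes were tested, and in 9 of these both were lower at 60 min. The difference between partners, H2B minus H2A, had a median of 0.013 on the log2 scale. It was nearest to 0 for Hist1h2ah and Hist1h2bk, at 0.0065. It was lowest for Hist1h2ai and Hist1h2bl, at −1.02, and highest for Hist2h2ac and Hist2h2be, at 1.14. These genes were named after their values were seen. Hist2h2be had a mean signal of only 3.79, where the log2(signal + 1) scale understates changes. Hist1h2ai and Hist1h2bl were only 8.0% and 11.4% unique. Partners also share near-identical copies elsewhere in the set, and what the pairs have in common was not tested.

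At 60 min the 2 genes with the highest mean in each core histone class differed less than the markers. The markers were chosen with earlier results known, so this comparison does not test a link with abundance. Across the 63 tested members, Spearman's rank correlation between mean signal and log2 change at 60 min was 0.17. It was 0.304 for H2A, 0.078 for H2B, −0.091 for H3 and 0.192 for H4 genes. Hist1h2ai (ENSMUSG00000071516), an H2A gene, had 3160 and 1912 in control, 4082 and 1904 at 15 min and 3548 and 1737 at 60 min. All 3 groups overlapped, with s1 higher in each, and the log2 change at 60 min was 0.01 ± 0.51 (adjusted p = 1). Hist1h2ap (ENSMUSG00000094777), also H2A, had 1896 and 1437 in control, 1621 and 872 at 15 min and 1470 and 681 at 60 min. These groups overlapped too, with a log2 change of −0.72 ± 0.45 (adjusted p = 0.753). Summed with Hist1h2ao, whose transcript shares 93.8% of its 31-base words with it, the control libraries gave 1671 ± 328 and the 60 min libraries 1082 ± 548 (SD, n = 2 each).

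Among H2B genes, Hist1h2bn (ENSMUSG00000095217) had 874 and 1306 in control, 727 and 623 at 15 min and 798 and 482 at 60 min. Hist1h2bj (ENSMUSG00000069300) had 827 and 1310 in control, 706 and 612 at 15 min and 615 and 437 at 60 min. For both genes every heated library lay below both controls, and the log2 changes at 60 min were −0.78 ± 0.32 (adjusted p = 0.596) and −1.004 ± 0.30 (adjusted p = 0.465). Among H3 genes, Hist2h3b (ENSMUSG00000074403) had 1283 and 1737 in control, 1084 and 794 at 15 min and 1090 and 691 at 60 min. Hist1h3b (ENSMUSG00000069267) had 1250 and 1504 in control, 1116 and 788 at 15 min and 1092 and 679 at 60 min. Again the heated libraries lay below control and overlapped with each other, with log2 changes at 60 min of −0.78 ± 0.32 (adjusted p = 0.59) and −0.67 ± 0.31 (adjusted p = 0.654).

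The H4 class was split. Hist1h4k (ENSMUSG00000064288) had the highest mean of all members, with 2580 and 4785 in control, 3068 and 2986 at 15 min and 3720 and 2429 at 60 min. Hist1h4m (ENSMUSG00000069306) had 2219 and 3473 in control, 1800 and 1916 at 15 min and 3004 and 2200 at 60 min. These abundant H4 genes overlapped between control and 60 min, with log2 changes of −0.22 ± 0.37 (adjusted p = 0.908) and −0.11 ± 0.30 (adjusted p = 0.939). Hist1h4j (ENSMUSG00000067455), at a lower level, had 43.99 and 66.51 in control, 21.96 and 17.48 at 15 min and 16.70 and 14.55 at 60 min. Its 3 groups did not overlap, and its log2 change at 60 min was −1.73 ± 0.26 (adjusted p = 0.178).

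Hist1h4n (ENSMUSG00000069305) was the 1 member higher at 60 min without overlap. It had 26.04 and 12.79 in control, 32.3 and 26.9 at 15 min and 137 and 92.8 at 60 min. The 60 min mean was 5.92 times control, and the log2 change was 2.56 ± 0.36 (adjusted p = 0.164), with an adjusted p from 0.0615 to 0.741 over its alternatives. Its transcript shares 85.2% of its 31-base words with Hist1h4m and carries the same stem-loop, shown above. The annotated model of Hist1h4n runs 31 bases past the stem-loop and that of Hist1h4m 3 bases. Summed over both copies, the signal was 2866 ± 877 in control, 1888 ± 78.6 at 15 min and 2717 ± 600 at 60 min (SD, n = 2 each), and control and 60 min overlapped. How reads were divided between the copies was not tested. The other 3 members that were not lower at 60 min, Hist1h2ai, Hist1h4c and Hist1h4i, had log2 changes of 0.01 to 0.34 with adjusted p of 0.856 to 1.

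**Figure D3:**
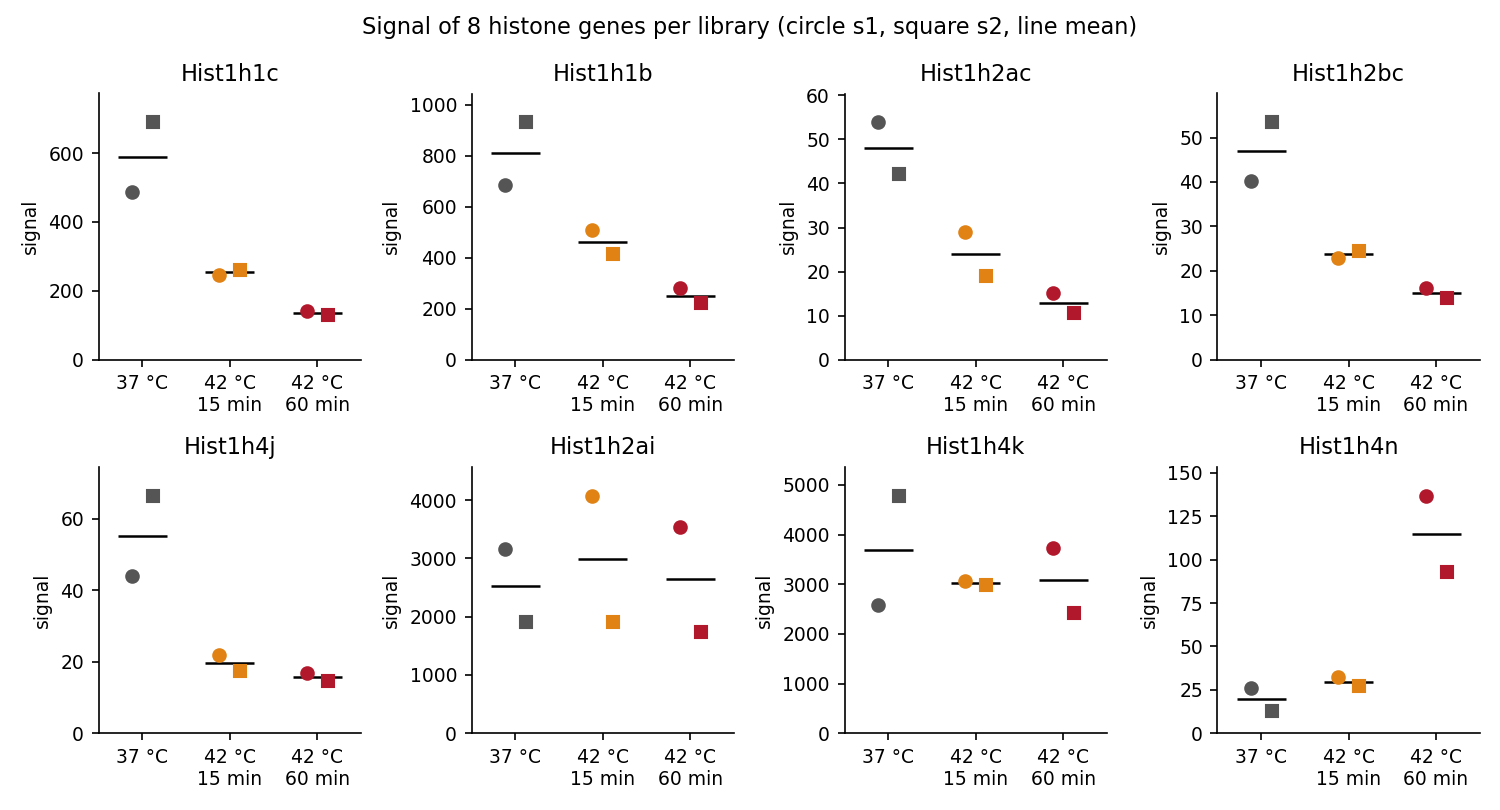
Signal (y axis, from 0) of 8 histone genes in the 2 libraries of each group (x axis), with circles for s1, squares for s2 and lines for group means. Hist1h1c, Hist1h1b, Hist1h2ac, Hist1h2bc and Hist1h4j step down with time at 42 °C, Hist1h2ai and Hist1h4k overlap between groups, and Hist1h4n is highest at 60 min with 137 and 92.8.

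After 15 min at 42 °C, most histone genes were already lower than in control. Of 63 tested members, 58 were lower and 5 higher, with a median log2 change of −0.68 against −0.10 over all genes tested. No member passed the adjusted threshold, as with 0% of all genes tested. Both 15 min libraries lay below both controls for 42 members (66.7%), against 18.9% of all genes tested. An unadjusted p under 0.05 with a lower value was found for 30 members (47.6%), against 1.86%. The class medians were −0.82 for H2B, −0.80 for H1, −0.73 for H3, −0.59 for H2A and −0.58 for H4. The 15 min and 60 min comparisons share their control libraries, so a control library that is off moves both.

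At 15 min the members with the smallest p were Hist1h4j, with a log2 change of −1.42 ± 0.26, and Hist1h1c, with −1.19 ± 0.22 (adjusted p = 0.747 each). The 15 min mean was 35.7% of control for Hist1h4j and 43.1% for Hist1h1c. The class sums at 15 min were 58.4% of control for H1, 58.5% for H3, 63% for H2B, 71.4% for H4 and 79.9% for H2A, and only the H2A groups overlapped. The H2A sum is the one whose direction depends on scaling, with a log2 ratio of −0.32 as deposited and 0.03 under median-of-ratios factors from all genes above 0.

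The 15 min counts depended most on scaling. The median-of-ratios factors from all genes above 0 came to 1.51 for control s1 and 0.8746 to 1.019 for the other libraries, and they moved the median of all genes from −0.10 to 0.19. Under them 9 members were lower without overlap, against 11.3% of all genes tested, 49 of 63 were lower and the median was −0.33. Factors over the 21954 tested genes, a choice made after seeing the data, came to 1.094 for control s1 and gave 42 members lower without overlap, against 17.3% of all genes tested. Factors over genes with a mean of at least 20, also chosen afterwards, came to 0.8927 for control s1 and gave 48 of 64, against 28.4% of all genes tested. Without control s1, 55 of 63 members were lower at 15 min, with a median of −0.90.

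Between 15 and 60 min at 42 °C, the H1 genes had the lowest class median and the H4 genes a median near 0. The class medians of the log2 change were −0.89 for H1, −0.36 for H2A, −0.33 for H2B, −0.12 for H3 and −0.01 for H4. Of 63 members, 55 were lower and 8 higher, with a median of −0.28 against 0.0009 over all genes tested. Lower without overlap were 22 members (34.9%), against 22.6% of all genes tested, a share nearer to the background than in the comparisons with control. An unadjusted p under 0.05 with a lower value was found for 8 members (12.7%), against 4.08%, and none passed the adjusted threshold, which 0.0182% of all genes tested passed.

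Of the 5 tested H1 genes, 4 were lower at 60 than at 15 min without overlap, against 22.6% of all genes tested. Hist1h1c had a log2 change of −0.90 ± 0.22 (adjusted p = 0.562) and Hist1h1b of −0.89 ± 0.25 (adjusted p = 0.638). Hist1h4n had the smallest p, with 1.90 ± 0.36 (adjusted p = 0.381). The median over all members ran from −0.51 without the 60 min library s1 to −0.01 without s2, where 33 members were lower and 31 higher. Members lower without overlap numbered 54 of 64 without the 60 min library s1, against 38.5% of all genes tested, and 48 of 64 without the 15 min library s2, against 36.4%. Members were higher in s1 than in s2 for 58 of 63 genes at 60 min, 52 of 63 at 15 min and 20 of 63 in control, which is the spread these comparisons are set against.

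Annotated features that the choice of members did not use were set beside the log2 change at 60 min. The 24 tested members with at least 50% unique 31-base words had a median of −1.17, with 22 lower and 21 lower without overlap. The 39 with fewer had a median of −1.01, with 37 lower and 30 lower without overlap. Over all genes tested, 19.8% were lower without overlap. The more unique members include all 5 tested H1 genes, so the medians also differ in their mix of classes. Within classes, the more unique members had a median of −1.39 for 3 H2A genes, −1.18 for 7 H2B genes and −0.88 for 8 H4 genes, and the 1 such H3 gene had −0.70. The medians of all tested genes of these classes were −1.02, −1.16, −0.83 and −0.96.

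The annotated 3′ end showed no clear relation with the change. The median was −1.17 for the 12 tested members with no annotated base after the stop codon, −1.004 for 31 with fewer than 300 bases and −1.06 for 20 with at least 300 bases. Spearman's rank correlation across genes between 3′ UTR length and log2 change was −0.11 over 63 genes, −0.51 over 17 H2A, 0.02 over 17 H2B, 0.56 over 11 H3 and −0.13 over 13 H4 genes. Genes share libraries and near-identical copies, so they are not independent, and the sign differed between classes.

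By the form of the stem-loop, the 32 tested members with the GGCTC stem had a median of −1.15, and all 32 were lower. The 12 with the GGCCC or GGTCC stem, all H4, had a median of −0.88, and 9 were lower. The 19 tested members without a match had −0.90, and 18 were lower. Since stem and class coincide in this set, stem and class cannot be told apart. By promoter letters, the 7 tested members with the AC box, most of them H1, had a median of −1.63 against −1.004 for 51 without, and the 13 with the octamer had −1.18 against −1.004 for 45 without. By cluster, the 51 tested Hist1 genes, on chromosome 13, had a median of −1.02 and the 9 tested Hist2 genes, on chromosome 3, −1.18.

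**Figure D4:**
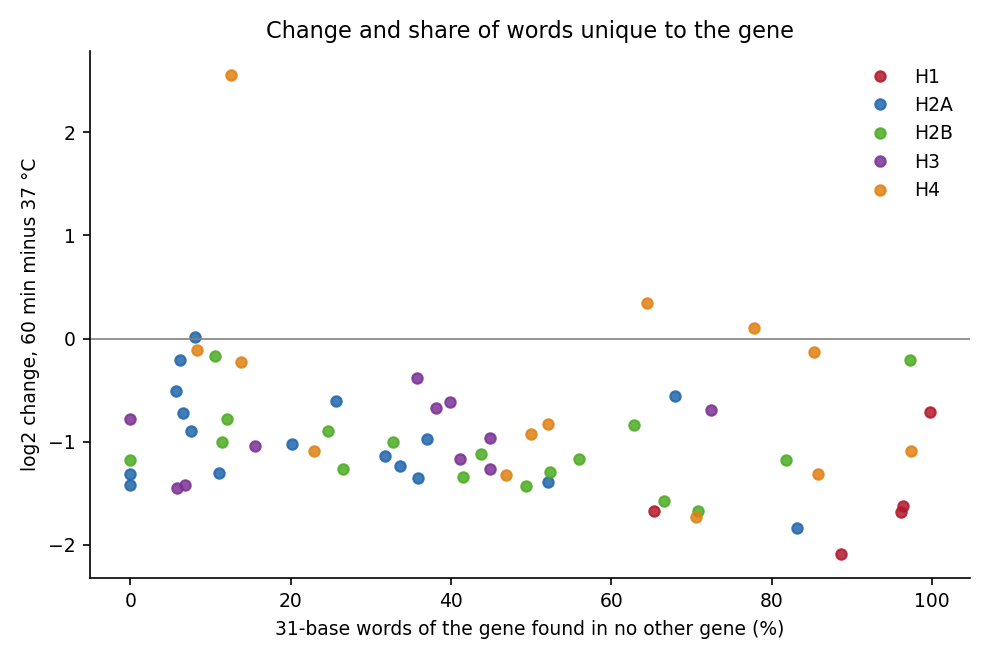
Log2 change from control after 60 min (y axis) against the percentage of a gene's 31-base words found in no other annotated gene (x axis), for 63 histone genes coloured by class. Low values lie along the whole x axis, and Hist1h4n, the point at 2.56, is 12.5% unique.

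The genes that process histone transcripts, handle histone proteins or act in S phase had medians near 0 after 60 min. These lists are given by counts and medians. After 60 min, 13 of 35 genes of histone mRNA processing and decay were lower and 22 higher (median 0.11), and none passed the adjusted threshold. Slbp, which binds the stem-loop, had 95.5 and 74.6 in control, 109 and 90.5 at 15 min and 90.9 and 73.0 at 60 min. All 3 groups overlapped, with a log2 change at 60 min of −0.05 ± 0.22 (adjusted p = 0.965). The genes with the highest mean in the list were Lsm4, a subunit of the Lsm rings that bind RNA 3′ ends, and Srrt, a partner of the nuclear cap-binding complex. Lsm4 had 265 and 206 in control and 372 and 221 at 60 min, a log2 change of 0.30 ± 0.32 (adjusted p = 0.872). Srrt had 195 and 134 in control and 275 and 178 at 60 min, a log2 change of 0.45 ± 0.35 (adjusted p = 0.809). The groups overlapped for both genes.

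Of 50 genes of S phase and DNA replication, 23 were lower and 27 higher after 60 min (median 0.02), with 7 lower without overlap (14%, against 19.8% of all genes tested and 5.49% of genes with a mean of at least 100) and none past the adjusted threshold. Their summed signal was 2673 and 2155 in control, 3421 and 2223 at 15 min and 3010 and 2015 at 60 min. The groups overlapped, and s1 was higher in each. Mcm7, a subunit of the replicative helicase, had 251 and 220 in control and 291 and 213 at 60 min, a log2 change of 0.08 ± 0.25 (adjusted p = 0.946). Dnmt1, which copies DNA methylation at the fork, had 246 and 123 in control and 289 and 151 at 60 min, a log2 change of 0.26 ± 0.50 (adjusted p = 0.916). At 15 min, 39 of the 50 were higher, with a median of 0.14.

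Of 24 histone chaperone and deposition genes, 11 were lower and 13 higher after 60 min (median 0.08), and none passed. Nap1l1, a chaperone for H2A and H2B, had 850 and 670 in control and 1288 and 903 at 60 min, a log2 change of 0.51 ± 0.29 (adjusted p = 0.737). Anp32e, a chaperone for the variant H2A.Z, had 479 and 236 in control and 465 and 295 at 60 min, a log2 change of 0.14 ± 0.44 (adjusted p = 0.948). The first did not overlap between groups and the second did.

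Of 11 replacement histone genes, 5 were lower and 6 higher after 60 min (median 0.14), and none passed. At 15 min, 8 were higher and 3 lower, with a median of 0.34 beside 0.27 over all genes with a mean of at least 100. H1f0, the replacement linker histone of cells that leave the cycle, was named after its values were seen. It had 276 and 249 in control, 352 and 292 at 15 min and 179 and 110 at 60 min. It was lower at 60 min than in both other groups without overlap, with a log2 change from control of −0.90 ± 0.27 (adjusted p = 0.476). Unlike the 5 tested replication-dependent H1 genes, it was not below control at 15 min.

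Scaling moved the lists and the histone genes together without closing the gap in their medians. Under median-of-ratios factors from all genes above 0, from the tested genes and from genes whose mean reached 20, the 63 tested histone genes had medians at 60 min of −0.84, −0.99 and −1.11. The median of the S phase list was 0.21, 0.07 and −0.04 under the same factors, that of the processing list 0.31, 0.16 and 0.05, that of the chaperones 0.27, 0.13 and 0.015 and that of the replacement histones 0.34, 0.19 and 0.07. At 15 min the S phase median ran from −0.003 to 0.48 and the chaperone median from −0.13 to 0.37, so that their direction flips with scaling, while the histone genes ran from −0.83 to −0.33.

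**Figure D5:**
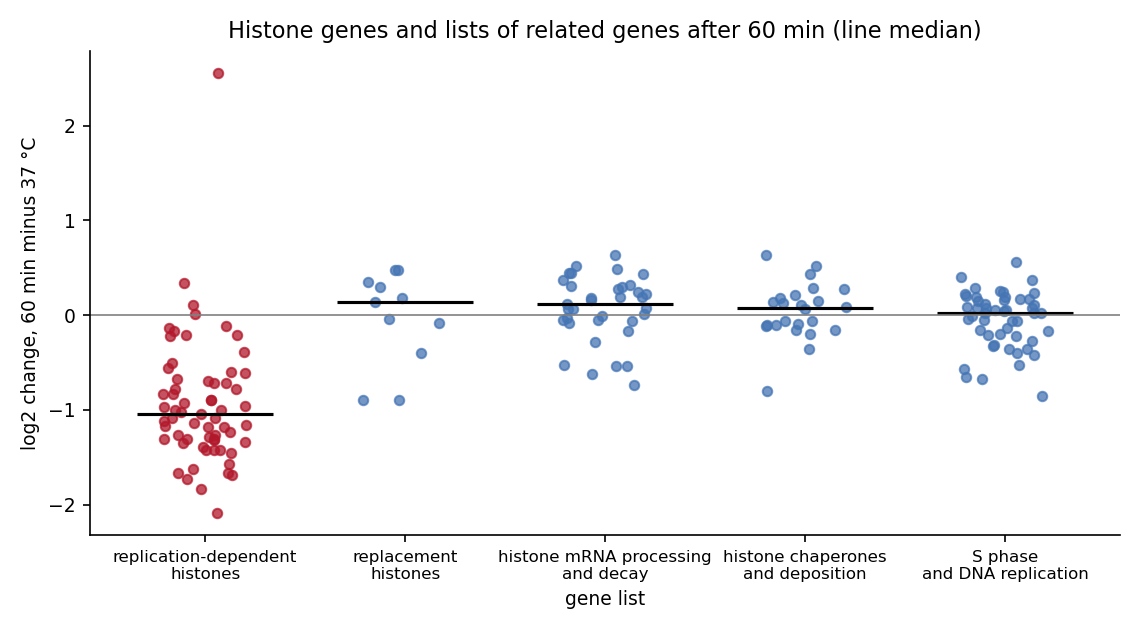
Log2 change from control after 60 min (y axis) for the 63 tested replication-dependent histone genes and 4 lists of related genes (x axis), with points for genes and lines for medians. The histone genes lie around −1.04 and the medians of the other lists lie between 0.02 and 0.14.

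Sums over marker genes of other cells were set beside the histone difference. At 60 min 4 of 5 neuronal genes were higher (median 0.21) and 4 of 6 progenitor genes were lower (median −0.17). The progenitor sum was 2287 and 2566 in control and 3042 and 2630 at 60 min. Of 6 erythroid genes 5 were lower (median −0.36), with sums of 343 and 506 in control and 366 and 305 at 60 min. Microglial genes had a median of −0.10, endothelial genes of −0.41 and fibroblast and meningeal genes of −0.13 with sums of 12.02 or less at 60 min. None of these markers was listed at 0 in any library, and P2ry12 and Lum, the lowest of the microglial and fibroblast lists, stayed below 1. At 15 min, where the histone median was −0.68, all 6 erythroid genes were lower (median −0.71), as were all 4 endothelial genes (median −0.33) and all 3 tested microglial genes (median −0.39). The erythroid sums at 15 min were 256 and 309, below both controls. Fibroblast and meningeal genes had a median of −0.13, progenitor genes of 0.08 and neuronal genes of 0.39. The part of these cells in the histone difference was not tested.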

How the data were processed

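Gene-level signal from 6 libraries of total RNA was analysed. The authors deposited a normalised signal, called TPM in the table's name, whose column totals differ between libraries, so each library carries a further factor that the sources used here do not explain. The submitters' processing notes name kallisto, sleuth and GRCm39, with versions, annotation release and use of strand not given in the sources used here. Without stated strand, reads of overlapping genes on opposite strands cannot be told apart. Since depth is unknown, no counting interval is given. RNA recovered with ribosomes was not analysed here. Columns were assigned to groups by name, and s1 and s2 serve only as names.

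Symbols were matched by Ensembl ID. Transcript models, coding ends and 31-base words came from GENCODE vM21 on GRCm38, and promoters from RefSeq on GRCm38.p6, neither of which is the authors' build. The test used log2(signal + 1) for 21954 genes whose mean reached 1, with limma 3.58.1 in R 4.3.3, a mean-variance trend, group as the only term over all 6 libraries (3 residual degrees of freedom) and Benjamini-Hochberg adjustment over all genes tested, two-sided. Changes on that scale understate those of low genes. The fit was tested on simulated data with known changes. Summaries and figures used Python 3.11.15, pandas 2.3.3, scipy 1.17.1 and matplotlib 3.10.9.

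The members and lists were chosen with earlier results of these data known. Named members were 4 markers (Hist1h1c, Hist1h1b, Hist1h2bc, Hist1h2ac), the 2 with the highest mean in each class, any past an adjusted p of 0.05, and the 2 with the smallest p in each comparison. In the lists of processing, chaperone and S phase genes, the 2 with the highest mean and Slbp were named. Alternatives were no trend, other pseudocounts (0.1, 5) and filters (none, a mean of 5), only the 4 libraries compared, a block by suffix, median-of-ratios scaling and leaving out each library. Scaling over tested or abundant genes and the restriction to members with mostly unique words were added after seeing the data.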

Additional observations from a re-analysis of the deposited data

How the results depend on the processing

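The median over members was below 0 in all 3 comparisons under each of 17 alternatives. Depth is unknown, and 2 libraries per group limit every test. Median-of-ratios factors from all genes above 0 left 32 of 63 members lower without overlap at 60 min, against 9.25% of all genes tested. At 15 min they left 9 of 63, against 11.3%. Under the same factors the member medians were −0.84 and −0.33, and the H1 sum at 15 min had a log2 ratio of −0.51. The cause was not tested. With that scaling over genes with a mean of at least 20, 1 member (Hist1h1c) passed at 60 min. With only mostly unique members, 21 of 24 were lower without overlap at 60 min, against 19.8% of all genes tested. At 15 min 18 of 24 were, against 18.9%. Both counts are smaller than over all members because fewer genes enter.

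Leaving out 1 library at a time, at 60 min against control 0 to 1 members passed, the median ran from −1.30 to −0.77, the H2A sum ratio from −1.16 to −0.25 and the H2B sum ratio from −1.38 to −0.75, each on the log2 scale and each lowest without the 60 min library s1. At 15 min the median ran from −0.91 to −0.46. Between 15 and 60 min, 22 to 54 members were lower without overlap, against 22.6% of all genes tested with no library left out. The 54 came without the 60 min library s1, where the share of all genes was higher too, as given above. In this comparison the median ran from −0.51 to −0.010, the H2A ratio from −0.84 to 0.18 and the H2B ratio from −0.72 to −0.083.

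The differences of s1 and s2 correlated between groups across tested genes at 0.079 (control and 15 min), 0.102 (control and 60 min) and 0.224 (15 and 60 min), so the suffixes were not taken as pairs. Over the 63 members alone the same correlations were 0.696, −0.172 and −0.485. With a replicate block by suffix, 0 members passed in each comparison, and 8, 0 and 4 of all genes passed, against 9, 0 and 4 without it.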
